A study of Mus musculus with 3 samples.

Results

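The genes described here include 4 that encode subunits of the transcription factor NF-κB (Nfkb1, Nfkb2, Rel and Relb). Another 6 are grouped as its feedback inhibitors (Nfkbia, Nfkbie, Nfkbiz, Nfkbid, Bcl3 and Tnfaip3), although Nfkbiz encodes a coactivator of secondary response genes. The 10 genes were chosen by mouse symbol, matched to the Ensembl identifiers of the count table. All 10 of 10 were found among the 19723 genes of that table, and all 10 were among the 13019 genes that passed a filter of at least 1 CPM (a gene's reads per 1e6 reads of its library after scaling) in at least 1 library. The remaining subunit gene, Rela, and the inhibitor gene Nfkbib were read alongside them as the rest of the family.

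The study sequenced RNA of 3 pools of sorted cells, each a single library and a group of its own. All mice were female BALB/c, 6 to 8 weeks old. The first library came from myeloid-derived suppressor cells (MDSCs, myeloid cells known for holding back T cell responses) pooled from 20 tumours of mice treated with alisertib, an inhibitor of the mitotic kinase Aurora A. The second came from MDSCs pooled from 20 tumours of control mice, which the labels call untreated in one place and control treated in another. The third came from neutrophils of bone marrow, pooled from 5 wild-type mice not labelled as bearing tumours. The labels do not name the tumour line, the drug dose and schedule or the surface markers of the sort, and state purity only as above 90%. No group had a replicate, so every difference is between single libraries. Intervals are 95% counting intervals and say nothing of the spread between animals.

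NF-κB is a family of dimeric transcription factors that in resting cells are held in the cytoplasm by IκB proteins. Signals from Toll-like receptors, the interleukin-1 receptor and tumour necrosis factor receptors activate IκB kinase, which marks IκBs for degradation and frees dimers of RelA, c-Rel and the Nfkb1 product to enter the nucleus. A separate, slower route through the kinase NIK processes the Nfkb2 precursor and activates dimers with RelB. NF-κB switches on genes of its own inhibitors, which makes the response self-limiting, and neutrophils use it for cytokine production and survival.

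The inhibitor genes are known to be NF-κB targets, so the start sites were searched for the κB consensus, the 10-base motif bound by NF-κB dimers. The search used the RefSeq promoter table of build GRCm38.p6, with windows from 250 bases before to 50 after each start, on both strands. The table held 7 of the 10 genes in 12 windows, and Nfkb1, Relb and Nfkbiz were not searched. All 7 genes had at least 1 match, in 9 of the 12 windows. Over the whole table, 4.51% of 32851 windows and 5.14% of 27025 genes had a match. Among the 23513 windows with a GC content at least as high as the lowest of these genes, the share was 5.52%. That lowest GC content, 47%, lay below the median of all windows (52.7%), so these windows are not matched for GC. Rela and Nfkbib, the family genes outside the 10, had none in their windows. A match is a description of the letters and not evidence of binding.

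The windows of 4 genes are shown because they span the behaviour of the group: Nfkbia was the most abundant inhibitor, Tnfaip3 had the largest ratio of control MDSCs to bone marrow, Nfkb2 took the largest share of subunit transcripts in tumour MDSCs, and Nfkbid was the only gene called in none of the 3 comparisons below. Capitals mark κB consensus matches on either strand, and the sequences run 5′ to 3′ on the gene's strand. The first is chr12:55492598-55492897, the second chr10:19015361-19015660 (both on the minus strand), the third chr19:46304487-46304786 and the fourth chr7:30422156-30422455 (both on the plus strand).
Nfkbia: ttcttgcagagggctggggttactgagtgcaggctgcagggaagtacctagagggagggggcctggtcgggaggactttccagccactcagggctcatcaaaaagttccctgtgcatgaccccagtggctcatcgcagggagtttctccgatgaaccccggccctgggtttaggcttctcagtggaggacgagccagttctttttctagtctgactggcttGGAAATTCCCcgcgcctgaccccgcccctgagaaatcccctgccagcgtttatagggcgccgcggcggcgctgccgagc
Tnfaip3: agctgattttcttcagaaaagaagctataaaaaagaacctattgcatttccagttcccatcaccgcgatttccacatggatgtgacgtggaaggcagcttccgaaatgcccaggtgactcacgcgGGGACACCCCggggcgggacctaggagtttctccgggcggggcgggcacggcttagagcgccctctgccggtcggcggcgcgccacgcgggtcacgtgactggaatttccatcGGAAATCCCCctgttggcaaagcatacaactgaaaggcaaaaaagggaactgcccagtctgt
Nfkb2: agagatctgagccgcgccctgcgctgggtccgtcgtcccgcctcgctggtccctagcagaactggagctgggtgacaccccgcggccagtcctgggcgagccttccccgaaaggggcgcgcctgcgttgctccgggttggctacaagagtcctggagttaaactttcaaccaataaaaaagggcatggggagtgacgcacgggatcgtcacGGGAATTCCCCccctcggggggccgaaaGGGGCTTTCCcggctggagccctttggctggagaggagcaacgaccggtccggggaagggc
Nfkbid: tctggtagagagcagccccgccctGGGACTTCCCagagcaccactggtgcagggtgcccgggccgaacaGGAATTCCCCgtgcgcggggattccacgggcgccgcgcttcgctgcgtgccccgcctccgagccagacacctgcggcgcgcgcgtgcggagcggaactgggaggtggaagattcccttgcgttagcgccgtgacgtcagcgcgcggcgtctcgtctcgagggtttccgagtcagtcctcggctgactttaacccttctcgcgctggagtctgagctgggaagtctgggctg

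Nfkbia had 1 match, starting 29 bases before the start site. Tnfaip3 had one starting 125 bases and another starting 12 bases before its upstream start, and none at its second start. Nfkb2 had 3 matches at its first start, of which a pair overlapped, 2 at its next start and 1 at its last. The match GGGACTTTCC of those later starts was one site seen in overlapping windows. Nfkbid, called in no comparison, had 2 matches at its second start and none at the other 2. The remaining genes carried GGGAAATCCC (Rel, 92 bases before the start and overlapped by a second match), GGGGGATTCC (Nfkbie, 106 bases before) and GGGAAGTCCC (Bcl3, 2 bases after). The map of start windows therefore showed matches both in genes that were far higher in tumour MDSCs and in one that was not.

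**Figure D1:**
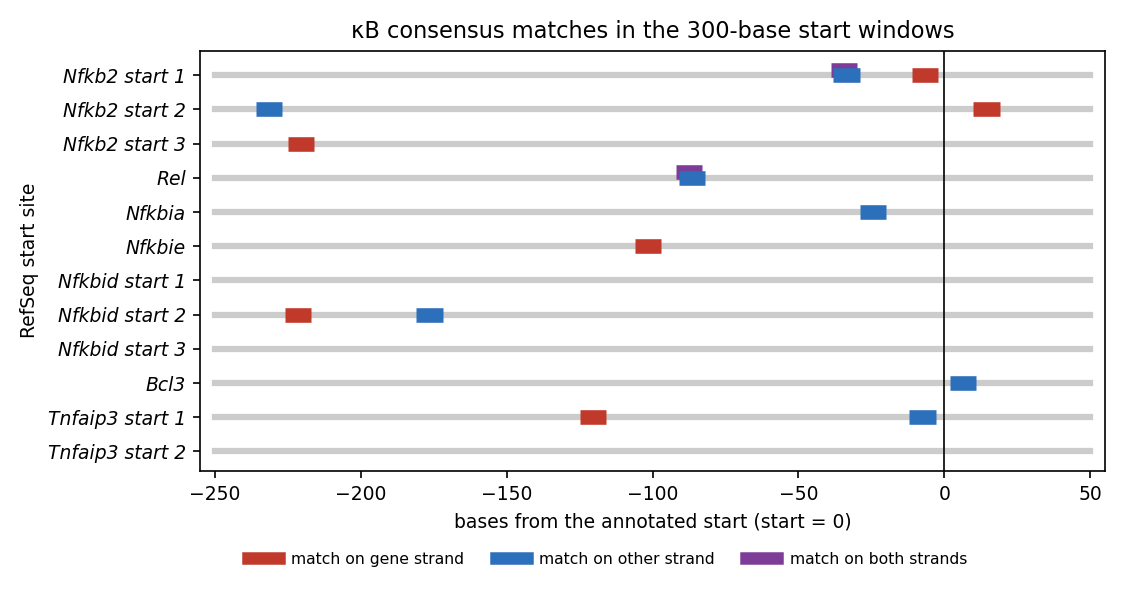
Position of κB consensus matches (coloured blocks, by strand) in the 12 start windows of the 7 genes found in the RefSeq table; the horizontal axis is the distance in bases from the annotated start, and each row is 1 start site. Of the 12 windows 9 hold a match, and those without one are at start 1 and start 3 of Nfkbid and start 2 of Tnfaip3.

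The libraries held 19373087 (alisertib), 21959748 (control) and 21987097 (bone marrow) counts, which were scaled by TMM before comparison. All 12 neutrophil markers had counts in every library, but at unlike levels: Ngp, a granule gene of developing neutrophils, stood at 186, 1509 and 21373 CPM with alisertib, in control and in bone marrow, respectively. Csf3r, which encodes the G-CSF receptor and was singled out after its values were seen as the marker that differed least between control and bone marrow, stood at 1725, 2226 and 2368 CPM. Markers of other cells were present too. T and NK cell markers summed to 68.0, 23.3 and 148 CPM over 17 genes, B and plasma cell markers to 59.3, 8.96 and 263 CPM over 12, monocyte and macrophage markers to 340, 333 and 491 CPM over 12, and dendritic cell markers to 192, 158 and 32.3 CPM over 9. Single genes carried several of these sums. Without Cd3d, the T and NK cell sums were 61.8, 14.6 and 11.96 CPM, so bone marrow was then the lowest. Without Ly6c2, the monocyte and macrophage sums were 331, 320 and 251 CPM, and without Itgax the dendritic cell sums were 23.3, 6.50 and 13.1 CPM. Epithelial markers summed to 18.5, 17.2 and 5.77 CPM and those of fibroblasts and endothelium to 53.0, 50.2 and 11.2 CPM, each over only the 4 and 5 listed genes found in the count table. Klrb1c was at 0 in both tumour libraries, Ncr1 and Cd209a were at 0 with alisertib, Siglech was at 0 in both tumour libraries, and Trac, Epcam and Kdr were at 0 in bone marrow.

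Levels between genes were compared by the deposited FPKM, which corrects for gene length. Nfkbia, which encodes IκBα, the main cytoplasmic inhibitor, ranked first of the 10 in every library, at 953 FPKM with alisertib, 1354 in control and 196 in bone marrow. It was the 33rd, 30th and 191st gene of the whole FPKM table. Nfkbiz, which encodes the nuclear protein IκBζ, a coactivator of secondary response genes, came second in each library, at 233, 379 and 76.0 FPKM. Below these the order differed between tumour and bone marrow. Tnfaip3, which encodes the ubiquitin-editing enzyme A20, came next in both tumour libraries (151 and 188 FPKM) but below Nfkbid (33.4 FPKM) and Rel in bone marrow (18.4 FPKM).

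Some neighbours in these orders could not be separated by counting error. In control MDSCs, Rel (54.2), Nfkbie (53.3) and Nfkb1 (52.4 FPKM) had overlapping intervals from one to the next, as did Relb (39.5), Nfkbid (39.1) and Bcl3 (36.9 FPKM). In bone marrow, Rel (18.96), Tnfaip3 (18.4), Nfkb2 (16.9) and Nfkb1 (15.8 FPKM) overlapped from one to the next, and so did Nfkbie (13.9) and Bcl3 (13.3 FPKM). With alisertib no neighbours overlapped. Relb was the lowest of the 10 in bone marrow at 4.44 FPKM, and Bcl3 was the lowest in both tumour libraries.

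**Figure D2:**
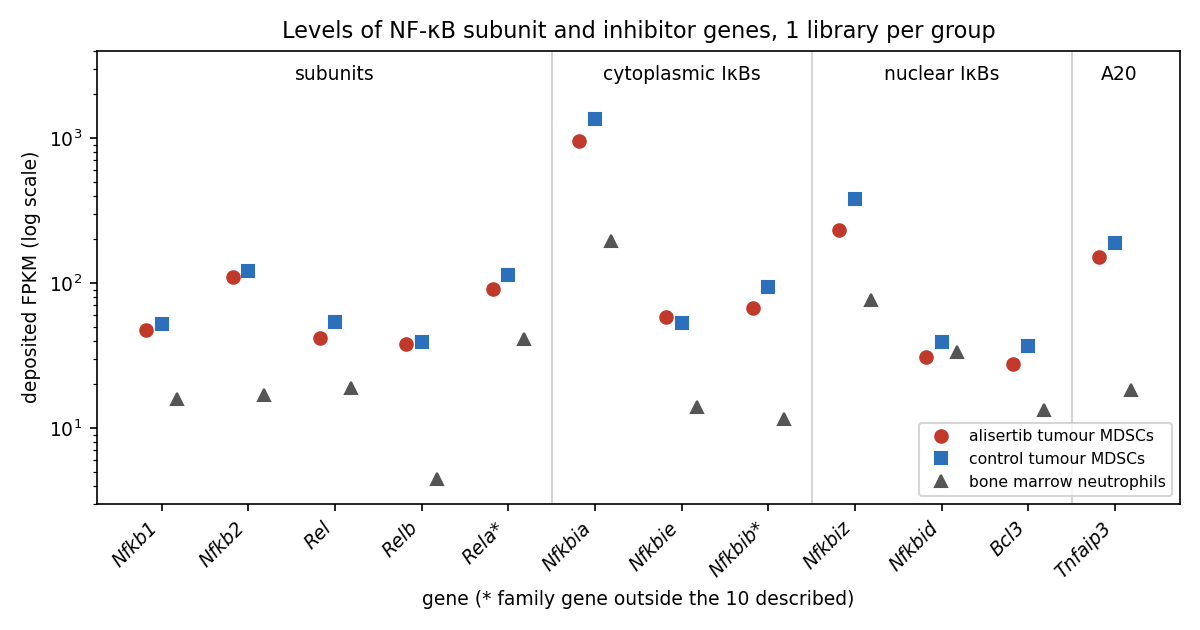
Deposited FPKM (log axis) of the 10 genes, with Rela and Nfkbib marked by an asterisk; each symbol is 1 library. The bone marrow symbol lies below both tumour symbols for every gene except Nfkbid, which had 31.0, 39.1 and 33.4 FPKM with alisertib, in control and in bone marrow, respectively.

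The first comparison set control MDSCs against bone marrow neutrophils. A call, higher or lower, required the interval bound nearest to 1 to be at least 2-fold. Of the 10 genes 9 were higher in control MDSCs and none was lower, against 18.3% of all genes tested called higher and 22.9% called lower. More abundant genes were called higher more often: 40.2% of those of 256 to 512 CPM on average and 53.5% of those of 512 CPM or more. In bins of 1 log2 unit of mean CPM, all 10 lay above their bin's median ratio, with Rel and Nfkbid inside its interquartile range. The median log2 ratio of the 10 was 2.15, that of all genes tested was -0.14, and that of the 2739 genes at least as abundant as the least abundant of the 10 was 0.32. In bulk RNA, more cells of a type and more RNA per cell cannot be told apart, and the 2 libraries also differ in tissue of origin and in tumour bearing. Neutrophil markers differed along with the 10 genes: 9 of 12 were lower in control MDSCs than in bone marrow and 11 of 12 were lower with alisertib, with summed levels of 15091 (alisertib), 34957 (control) and 110829 CPM (bone marrow). Ly6g, a surface marker of mouse neutrophils, stood at 60.0, 82.2 and 1100 CPM in that order, and the part of this difference in the ratios was not tested.

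Among the subunits, the 2 genes of the NIK route had the largest ratios. Nfkb2 (ENSMUSG00000025225, chromosome 19, 46304320 to 46312385 on the plus strand of GRCm38) had 8015 counts in control MDSCs and 1294 in bone marrow, 410 and 56.1 CPM, a ratio of 7.31 (6.90 to 7.76). Relb (ENSMUSG00000002983, chromosome 7, 19606217 to 19629438, minus strand), which encodes its usual partner, had 3074 and 402 counts, 157 and 17.4 CPM, a ratio of 9.03 (8.14 to 10.045). Both were therefore several-fold higher in the tumour library. The subunits of the rapid route differed less. Nfkb1 (ENSMUSG00000028163, chromosome 3, 135584655 to 135691547, minus strand) had 12666 and 4454 counts, 648 and 193 CPM, a ratio of 3.36 (3.25 to 3.48). Rel (ENSMUSG00000020275, chromosome 11, 23736847 to 23770970, minus strand), encoding c-Rel, had 8113 and 3301 counts, 415 and 143 CPM, a ratio of 2.90 (2.79 to 3.02). Rela stood close to Rel, at 318 and 112 CPM, a ratio of 2.83 (2.70 to 2.96).

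The cytoplasmic inhibitors were higher in control MDSCs as well. Nfkbia (ENSMUSG00000021025, chromosome 12, 55489410 to 55492647, minus strand) had 42817 and 7216 counts, 2192 and 313 CPM, a ratio of 7.01 (6.83 to 7.19). Nfkbie (ENSMUSG00000023947, chromosome 17, 45555703 to 45563169, plus strand), encoding IκBε, had 2591 and 785 counts, 133 and 34.0 CPM, a ratio of 3.90 (3.60 to 4.23). Nfkbib, encoding IκBβ, had the largest ratio of the cytoplasmic IκB genes, 8.29 (7.60 to 9.06), at 211 and 25.4 CPM. Tnfaip3 (ENSMUSG00000019850, chromosome 10, 19000910 to 19015657, minus strand) had 27220 and 3101 counts, 1393 and 134 CPM. Its ratio of 10.4 (9.99 to 10.8) was the largest of the 10.

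The nuclear IκB genes did not behave as one group. Nfkbiz (ENSMUSG00000035356, chromosome 16, 55811375 to 55838899, minus strand) had 38117 counts in control MDSCs and 8894 in bone marrow, 1951 and 386 CPM, a ratio of 5.06 (4.95 to 5.18). Bcl3 (ENSMUSG00000053175, chromosome 7, 19808462 to 19822770, minus strand) had 1832 and 769 counts, 93.8 and 33.3 CPM, a ratio of 2.81 (2.58 to 3.06). Nfkbid (ENSMUSG00000036931, chromosome 7, 30421732 to 30428746, plus strand), which encodes IκBNS, had 1840 and 1830 counts, 94.2 and 79.3 CPM. Its ratio of 1.19 (1.11 to 1.27) did not reach the 2-fold bound, so Nfkbid was the only one of the 10 without a call in this comparison.

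**Figure D3:**
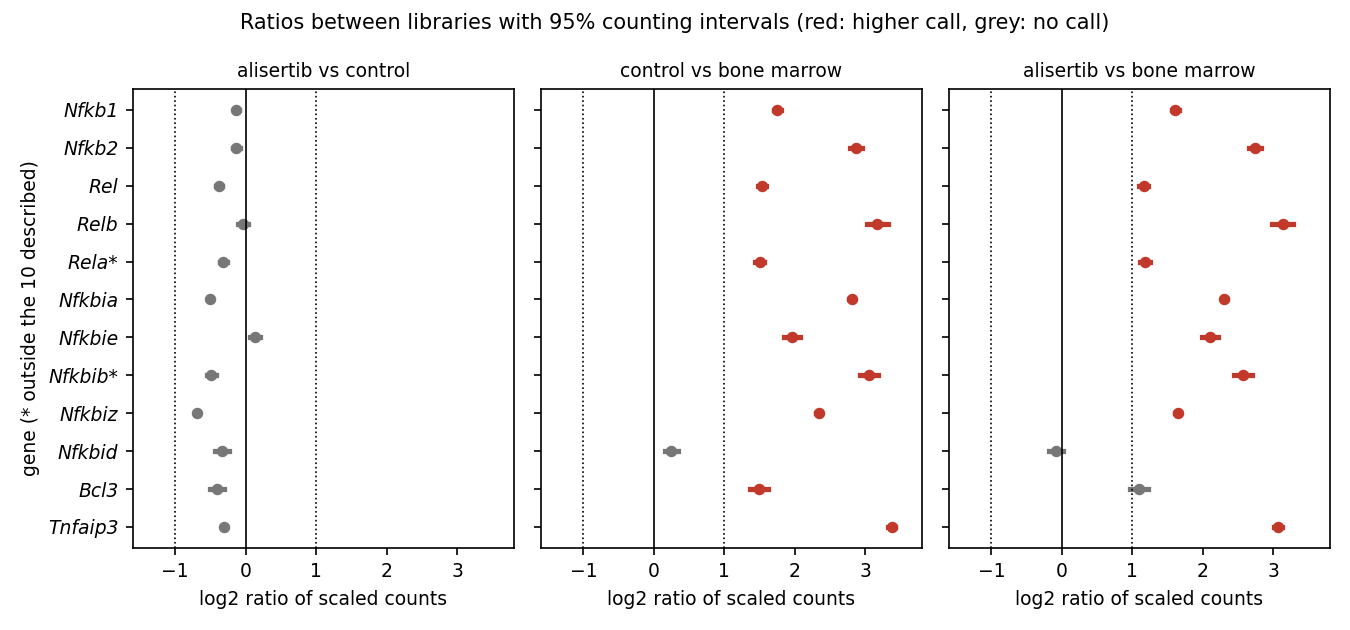
Log2 ratio of scaled counts (points) with 95% counting intervals (bars) for the 10 genes, Rela and Nfkbib in the 3 comparisons; dotted lines mark 2-fold, red marks a higher call and grey no call. All points lie between the 2-fold lines for alisertib against control, while 9 and 8 of the 10 genes are called higher in the control and alisertib libraries against bone marrow.

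Alisertib MDSCs were set against the same bone marrow library, so the 2 comparisons with bone marrow are not independent. Of the 10 genes 8 were higher and none lower, against 18.7% of all genes tested called higher and 22.3% called lower. The median log2 ratio was 1.87 against -0.09 for all genes. Among the 2739 genes at least as abundant as the least abundant of the 10, 25.5% were called higher and 22.6% lower. In bins of mean CPM, 9 of the 10 lay above their bin's median ratio, with Rel, Nfkbiz and Nfkbid inside its interquartile range. Relb (ratio 8.77, 7.90 to 9.75), Tnfaip3 (8.36, 8.06 to 8.69) and Nfkb2 (6.67, 6.29 to 7.08) had the largest ratios. Nfkbia (4.95, 4.82 to 5.08), Nfkbie (4.27, 3.95 to 4.63), Nfkbiz (3.13, 3.05 to 3.21), Nfkb1 (3.05, 2.95 to 3.16) and Rel (2.23, 2.14 to 2.33) were the other genes called higher. Bcl3 had a ratio of 2.13, with a lower bound of 1.95 and an upper bound of 2.32. Nfkbid, at 74.8 against 79.3 CPM, had a ratio of 0.943 (0.881 to 1.01). Of the 14 T and NK cell markers past the filter, 11 were called higher with alisertib than in bone marrow and 2 lower, with a median log2 ratio of 3.07. Cd8b1, Ncr1 and Klrb1c did not pass. Some low markers passed only through the alisertib library, such as Trac at 2.51 (alisertib), 0.67 (control) and 0 CPM (bone marrow). The count of 11 and the median therefore follow in part from the filter. The part of T and NK cells in the ratios of the 10 genes was not tested.

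Within a library, shares of transcripts do not depend on library scaling. Of the summed FPKM of the 5 subunit genes, Nfkb2 made up 17.4% in bone marrow, 31.9% in control and 33.6% in alisertib MDSCs. Relb made up 4.57%, 10.3% and 11.6% in the same order. Rela differed in the opposite direction, with 42.2% in bone marrow and 29.9% and 27.7% in the tumour libraries, as did Rel with 19.5%, 14.2% and 12.6%. Nfkb1 lay between 13.7% and 16.3%. The sum itself was 97.0 FPKM in bone marrow, 382 in control and 329 with alisertib.

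**Figure D4:**
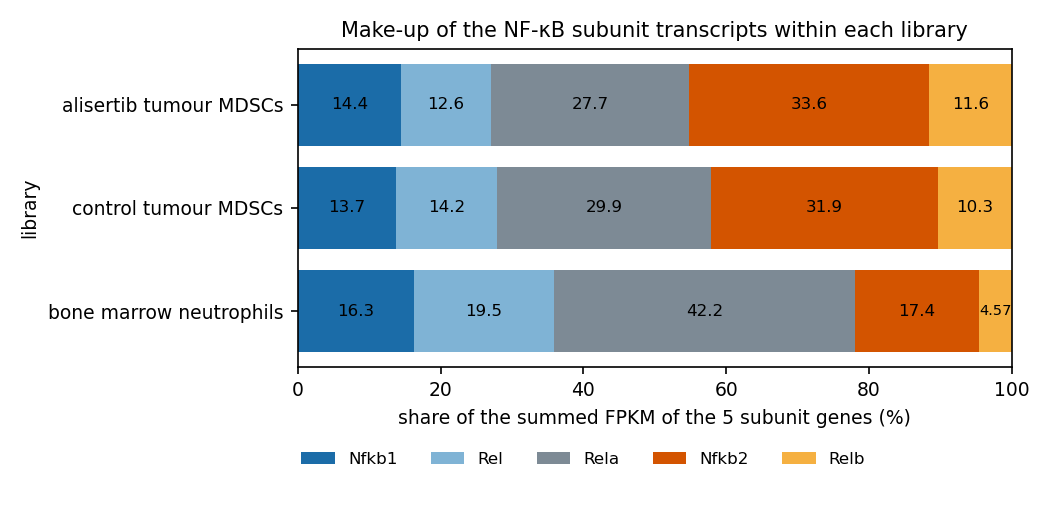
Share of each subunit gene in the summed deposited FPKM of the 5 subunit genes, in percent, with 1 bar per library. Nfkb2 and Relb take a larger share in both tumour libraries than in bone marrow (31.9% and 33.6% against 17.4% for Nfkb2), and Rela and Rel a smaller one.

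Counts relative to Rela, a reading chosen after the values were seen, come from the same reads as the shares above. For the subunits they restate those shares and are not a separate result. Between control and bone marrow, the ratio relative to Rela was 2.58 (2.40 to 2.78) for Nfkb2 and 3.19 (2.85 to 3.57) for Relb, but 1.19 (1.12 to 1.26) for Nfkb1 and 1.03 (0.965 to 1.09) for Rel. Among the inhibitors it was 3.66 (3.45 to 3.89) for Tnfaip3 and 2.48 (2.35 to 2.61) for Nfkbia, against 0.994 (0.903 to 1.09) for Bcl3 and 0.420 (0.388 to 0.454) for Nfkbid. So Nfkbid transcripts were fewer per Rela transcript in control MDSCs, and the intervals of Rel and Bcl3 included 1. In FPKM, Nfkbia stood at 4.80 times Rela in bone marrow, 11.9 times in control and 10.5 times with alisertib. Nfkbiz stood at 2.27 times Nfkbid in bone marrow and at 9.68 and 7.54 times in control and alisertib MDSCs.

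Alisertib and control MDSCs were compared to describe the genes after Aurora A inhibition, a comparison that shares each of its libraries with one of the others. None of the 10 genes was called in either direction, against 1.8% of all genes tested called higher and 1.18% called lower. Their log2 ratios ran from -0.69 to 0.13 with a median of -0.32, 9 below 0 and 1 above. The median of all genes tested was 0.0014. Both medians depend on scaling: dividing by total counts raised every log2 ratio by 0.27. That left 6 of the 10 below 0 and put Nfkb1, Nfkb2, Relb and Nfkbie above it. With total counts the median of the 10 was -0.0525 and that of all genes tested was 0.27, so the 10 stayed below all genes under both scalings. Ratios were lower among more abundant genes. The 2739 genes at least as abundant as the least abundant of these 10 had a median of -0.21. The median was -0.31 for genes of 256 to 512 CPM on average and -0.39 for those of 512 CPM or more.

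Nfkbiz was the most distant from 1. Its 25035 counts with alisertib stood against 38117 for control MDSCs (1206 and 1951 CPM), a ratio of 0.618 (0.608 to 0.628). Nfkbia had 32123 and 42817 counts, 1548 and 2192 CPM, a ratio of 0.706 (0.696 to 0.716). Both most abundant inhibitors thus had lower scaled counts with alisertib, short of the 2-fold bound. Bcl3 had 1472 and 1832 counts, 70.9 and 93.8 CPM, a ratio of 0.756 (0.705 to 0.810). Rel had 6633 and 8113 counts, 320 and 415 CPM, a ratio of 0.769 (0.745 to 0.795). Nfkbid had 1553 and 1840 counts, a ratio of 0.794 (0.742 to 0.850), and Tnfaip3 23338 and 27220, a ratio of 0.807 (0.793 to 0.821).

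The remaining 4 genes lay nearer to 1. Nfkb1 had 12239 and 12666 counts, a ratio of 0.909 (0.887 to 0.932), and Nfkb2 7771 and 8015, a ratio of 0.912 (0.884 to 0.941). With total counts their log2 ratios turned from -0.14 and -0.13 to 0.13 and 0.14. Relb had 3171 and 3074 counts, and the interval of its ratio (0.971, 0.923 to 1.02) includes 1. Nfkbie was the only gene above 1, with 3019 against 2591 counts, 145 and 133 CPM, a ratio of 1.10 (1.04 to 1.16).

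Set against genes of like abundance (bins of 1 log2 unit of mean CPM), 5 of the 10 lay above and 5 below the median of their bin, and 7 lay within the interquartile range of the bin. The 3 outside were Nfkbiz (0.30 below its bin median on the log2 scale, or -0.30), Bcl3 (-0.27) and Nfkbie (0.26). Relative to Rela, the ratio was 1.37 (1.28 to 1.46) for Nfkbie, 1.21 (1.14 to 1.29) for Relb, 0.880 (0.846 to 0.916) for Nfkbia and 0.771 (0.741 to 0.802) for Nfkbiz. In FPKM, Nfkbia stood at 16.3 times Nfkbie with alisertib and at 25.4 times in control, while Nfkb2 stood at 2.33 and 2.32 times Nfkb1.

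**Figure D5:**
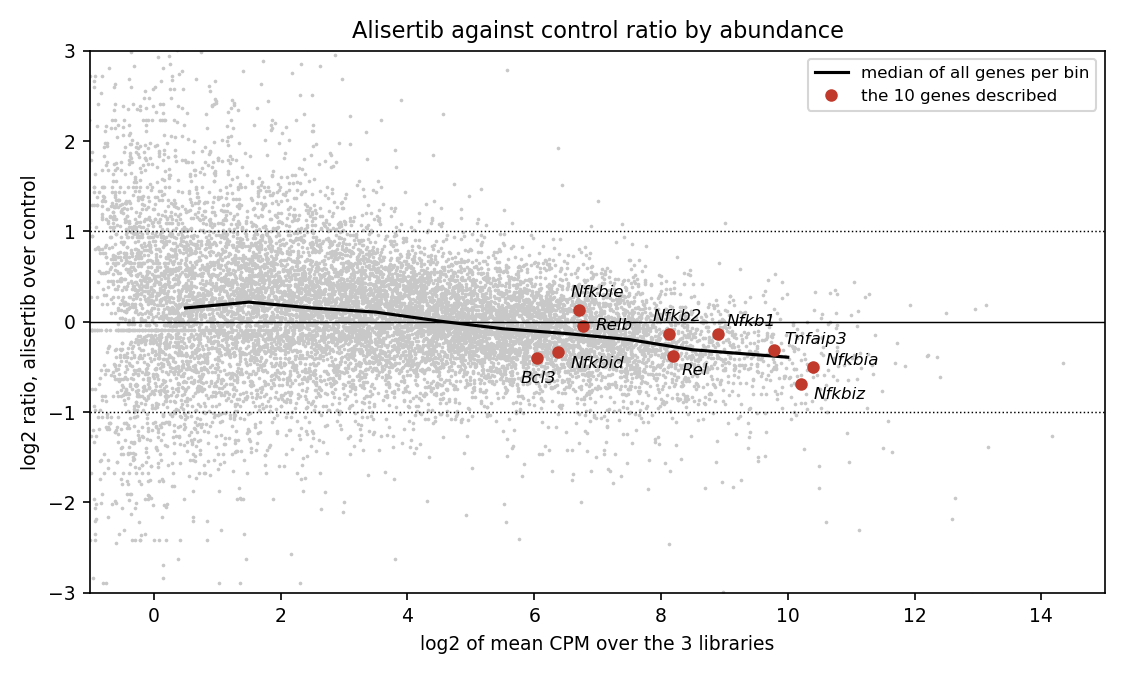
Log2 ratio of alisertib over control against the log2 of mean CPM over the 3 libraries for all genes tested (grey), the 10 genes (red) and the median of all genes per bin (line; the last bin holds all genes of 512 CPM or more and is drawn at 10). The 10 genes lie between -0.69 and 0.13, with 5 above and 5 below their bin's median; 179 genes lie outside the drawn range.

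Most lymphocyte markers moved with this comparison. Of 14 T and NK cell genes past the filter, 9 had a higher call with alisertib, such as the T cell factor gene Tcf7 (210 against 23 counts). The other 5 were not called, and 2 of the 14 had ratios below 1. These were Cd3d (129 against 170 counts, ratio 0.714, 0.564 to 0.903) and Nkg7 (10 against 14 counts, ratio 0.672, 0.267 to 1.63). In the B and plasma cell list, 9 of 12 genes had a higher call. Neither list had a lower call. Of 12 neutrophil markers 8 were called lower. Lymphocytes also use NF-κB, and the part of these cells in the ratios was not tested. In control MDSCs against bone marrow, all 12 B and plasma cell markers were lower. Of 11 monocyte and macrophage markers past the filter 5 were higher and 3 lower, with the complement gene C1qc at 280 against 87 counts and the monocyte gene Ly6c2 at 252 against 5528. Of 7 dendritic cell markers 2 were higher and 2 lower, with Itgax at 2952 against 444 counts and Siglech at 0 against 51. The part of those cells was not tested either.

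The other genes of the pathway were read from lists. Over all genes tested, 18.3% were called higher and 22.9% lower in control MDSCs against bone marrow, and 18.7% and 22.3% with alisertib. Among the 2739 genes at least as abundant as the least abundant of the 10, 29.8% were higher and 18.9% lower in control MDSCs. The median log2 ratio of all genes tested was -0.14 for control against bone marrow, or -0.39 with total counts. For alisertib against control it was 0.0014, or 0.27 with total counts. Of 26 genes of the IκB kinase complex, its adaptors and upstream kinases, 8 (30.8%) were called higher and 2 (7.69%) lower in control MDSCs against bone marrow. Their median log2 ratio was 0.33, or 0.09 with total counts, above that of all genes tested under both scalings. Irak2, a kinase of Toll-like and interleukin-1 receptor signalling, had a ratio of 9.78 (9.30 to 10.3) and Ikbke, an IκB kinase-related kinase, one of 7.70 (6.92 to 8.59). The related receptor kinase gene Irak4 was 4.41-fold lower (3.97 to 4.90). Map3k14, which encodes NIK and was singled out after its value was seen, had a ratio of 3.41 (3.14 to 3.71). With alisertib against bone marrow 5 of the 26 were higher (19.2%, near the share over all genes tested) and 2 lower (7.69%). Between alisertib and control none was called, with a median of -0.11, or 0.16 with total counts.

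Other negative regulators were mixed. Of 17 with counts, 5 (29.4%) were higher and 2 (11.8%) lower in control MDSCs than in bone marrow, with a median of 0.82. The higher share was near the 29.8% among the 2739 more abundant genes. Traf1, an adaptor of tumour necrosis factor receptors, had 2906 against 35 counts, a ratio of 98.1 (70.3 to 141). Zc3h12a, encoding the RNA-degrading protein Regnase-1, had a ratio of 4.42 (4.21 to 4.65) and Tnip1, which encodes an A20-binding protein, one of 3.61 (3.42 to 3.82). Nlrx1, a mitochondrial member of the NLR family, was 15.1-fold lower (13.1 to 17.4). Against bone marrow, 4 (23.5%) were higher and 2 (11.8%) lower with alisertib, where 18.7% of all genes tested were called higher. None of the 17 was called between alisertib and control (median -0.18, or 0.09 with total counts). All genes tested had medians of 0.0014 and 0.27 in these settings.

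Of 17 ligand and receptor genes past the filter, 8 were higher and 3 lower in both tumour libraries against bone marrow. Tnfrsf1b, encoding a tumour necrosis factor receptor, had 33465 counts in control against 2107, a ratio of 18.8 (17.9 to 19.6), and Tnfsf13b, encoding the B cell survival factor BAFF, was 27.5-fold lower (21.5 to 35.8). Tnf itself had 8557, 5982 and 1125 counts with alisertib, in control and in bone marrow, respectively, with ratios to bone marrow of 8.45 (7.94 to 9.003) and 6.28 (5.89 to 6.70). Between alisertib and control only the lymphotoxin gene Lta was called, at 22 against 3 counts, a ratio of 6.90 (2.07 to 36.0). This 1 higher call of 17 was 5.88%, against 1.8% of all genes tested. At 1.06 CPM with alisertib and 0.154 CPM in control, Lta reached the 1 CPM filter in the alisertib library but not in control. Its lower bound lay just past 2-fold.

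NF-κB target genes outside the 10 were mostly higher in tumour MDSCs: 21 of 27 past the filter in each comparison with bone marrow, with 3 lower. Their medians were 4.09 for control and 3.83 for alisertib. Cxcl3, a neutrophil attractant, had 50690, 47592 and 99 counts with alisertib, in control and in bone marrow, respectively, so both tumour libraries were close to each other and far above bone marrow. Between alisertib and control, the median was 0.01 and only Nos2, the inducible nitric oxide synthase (2.31-fold lower, 2.19 to 2.43), and Lcn2, a siderophore-binding granule protein (2.72-fold lower, 2.66 to 2.78), were called. With total counts the median was 0.28, where that of all genes tested was 0.27, and 1 gene of the list was called lower.

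Some of the 10 share sequence with neighbours. Nfkb2 overlaps the opposite-strand gene Psd by 299 bases, and Psd had 1297, 853 and 205 counts with alisertib, in control and in bone marrow, respectively. Bcl3 overlaps the antisense gene Gm16174 by 2073 bases, with 100, 63 and 152 counts, and Nfkb1 overlaps Gm43430 on its own strand, with 54, 57 and 28 counts. Outside the 10, Nfkbib overlaps the opposite-strand gene Sirt2 by 778 bases. Sirt2 had 2261, 3346 and 1622 counts in that order, against 586 counts of Nfkbib in bone marrow. The strand setting of the counting is not given, so reads in these overlaps cannot be told apart.

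The genes whose profile over the 3 libraries lay closest to the median profile of the 10 were Il1r2, Ciapin1, Arih2, Frrs1 and Mafk, among 6673 genes of at least 10 CPM on average. Il1r2, the decoy receptor for interleukin-1, stood at 1320, 1607 and 358 CPM with alisertib, in control and in bone marrow, respectively and had a Euclidean distance of 0.017 on the log2 scale. Closest to Tnfaip3 were Ctsz, Gm43660, Plin2, Vps37b and Prnp, with the cathepsin gene Ctsz at 452, 605 and 55.6 CPM and a distance of 0.079. With 3 libraries, likeness of this kind is a description only.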

How the data were processed

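RNA sequencing of 3 pooled sorts was read from 2 deposited tables. The authors deposited raw counts per Ensembl gene (19723 genes) and FPKM values (23327 genes). CASAVA 1.8, STAR 2.5.1b and 2 genome builds, mm9 and mm10, appear in the submitters' processing notes with their roles unstated. No source used here gives the counting tool, annotation, strand setting or FPKM library sizes. Library totals of 19373087, 21959748 and 21987097 counts were scaled by TMM factors of 1.07148 (alisertib), 0.88952 (control) and 1.0492 (bone marrow) with edgeR 4.0.16 in R 4.3.3. Genes with at least 1 CPM in at least 1 library were kept (13019). Log2 ratios were taken after adding 0.5 to each count. Ratios have exact 95% Clopper-Pearson intervals given the summed count, and a call needs the bound nearest to 1 to be at least 2-fold. Ratios relative to Rela have log-scale counting intervals. FPKM intervals in the orders of levels scale the exact Poisson interval of the count. Without molecular identifiers, reads may be copies of one molecule, so intervals cover counting error only. No p-value was computed, as there was 1 library per group. Symbols and positions came from GENCODE M21 (GRCm38), and promoter sequences from RefSeq (GRCm38.p6).

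The 10 genes, the 5 pathway lists and the 7 marker lists were chosen with earlier results of these data known. Of 95 pathway genes 91 and of 81 marker genes 71 had a row in the count table. Named besides the 10 genes were up to 4 genes of a list per comparison, called genes with the largest nearest bound first and then the most abundant, and the 5 genes nearest in profile to the median of the 10 and to Tnfaip3. Csf3r, Map3k14 and the markers at 0 were named outside this rule. The reference genes of the rule gave ratios of alisertib to control of 0.259 (Actb), 0.645 (Gapdh), 1.08 (Ppia) and 1.11 (Tbp). Actb was called lower with alisertib against control and against bone marrow (5.55-fold, 5.49 to 5.61). Gapdh was called higher in control against bone marrow (ratio 2.51, 2.47 to 2.54). Ppia and Tbp were called in no comparison. Alternatives were total counts, DESeq2 1.42.0 size factors, TMM without the 100 most abundant genes, no filter or a 10 CPM filter, log2 of FPKM plus 0.1 or 1, and a 1.5-fold bound. The interval script was tested on simulated counts. A planned comparison of protein motifs was not made, as no protein table was used here.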

Additional observations from a re-analysis of the deposited data

How the results depend on the processing

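There was 1 library per group, so no library could be left out, and calls take account of counting error only. No paired analysis was possible because each group had 1 library. All calls of the 10 genes were kept with total counts, DESeq2 size factors and both filters, and those of the 9 genes left by TMM without the 100 most abundant genes (which drops Nfkbia); the exceptions to the other settings were Bcl3 for alisertib against bone marrow (called with FPKM plus 0.1, FPKM plus 1 and a 1.5-fold bound) and Nfkbiz for alisertib against control (called lower with a 1.5-fold bound, which then gave 1 gene lower).

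The median log2 ratio of the 10 genes for alisertib against control was -0.0525 with total counts, -0.37 with DESeq2 size factors, -0.31 without the most abundant genes (here and below a median of 9 genes, without Nfkbia), -0.32 with FPKM plus 0.1 and -0.32 with FPKM plus 1. For control against bone marrow it was 1.91, 2.23, 1.97, 2.12 and 2.08 under the same settings, and for alisertib against bone marrow 1.90, 1.90, 1.65, 1.84 and 1.7999. With total counts, the log2 ratios of alisertib over control of Nfkb1 (0.13), Nfkb2 (0.14) and Relb (0.23) changed sign, by a shift common to all genes. Relative to Rela, those of Nfkb1 (0.18), Nfkb2 (0.19), Relb (0.28) and Tnfaip3 (0.0088) did, as did Nfkbid (-1.25) and Bcl3 (-0.0085) for control and Rel (-0.0233) and Bcl3 (-0.0933) for alisertib against bone marrow. In that setting Nfkb1, Rel, Nfkbie, Nfkbiz and Bcl3 were no longer called higher for control against bone marrow, nor Nfkb1, Rel, Nfkbie and Nfkbiz for alisertib against bone marrow, while Nfkbid was called lower in both (-1.25 and -1.27). The setting was chosen after seeing the data and measures change against another gene.

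Counts over all genes moved more. For alisertib against control, 431 genes were higher and 82 lower with total counts, 66 higher with the 10 CPM filter, 607 higher and 452 lower with FPKM plus 0.1, 85 higher with FPKM plus 1, and 617 higher and 640 lower with a 1.5-fold bound, against 234 and 154. Higher calls made up 60.3% of all calls in that comparison, 84.0% with total counts, 34.6% with the 10 CPM filter, 32.4% with FPKM plus 1 and 49.1% with a 1.5-fold bound. With the 10 CPM filter, which tests fewer genes, control against bone marrow gave 1564 higher and 1956 lower and alisertib against bone marrow 1482 higher, against 2386, 2985 and 2436.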
